A study of Mus musculus with 16 samples.

Results

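The genes described here are 9 chemokine receptor genes of effector and regulatory T cells, Ccr2, Ccr4, Ccr6, Ccr8, Ccr9, Cxcr3, Cxcr4, Cxcr5 and Cxcr6. They were chosen by symbol from the 53090 genes of the deposited tables. RNA was sequenced from splenic CD4+ T cells of wild type (WT) mice and of mice deficient in AIM2 (Aim2-/-), an intracellular sensor of DNA, to ask how AIM2 bears on naïve T cells and on their differentiation into regulatory T cells. Naïve T cells (Tn) were taken straight after isolation and were not cultured. Treg libraries came from cells kept for 2 days (48 h) under Treg conditions, that is with anti-CD3 and anti-CD28 antibodies, recombinant human TGF-beta and recombinant mouse IL-2. Each of the 4 groups (WT Tn, Aim2-/- Tn, WT Treg, Aim2-/- Treg) held 4 libraries. WT mice were C57BL/6 and Aim2-/- mice were AIM2-deficient on that background in every cell, so a difference in the T cells cannot be tied to loss of AIM2 within them. Both were cohoused after weaning and matched for sex and age. For differentiation, CD4+ cells of naïve phenotype had been picked by immunomagnetic selection, and the Treg libraries hold the whole culture rather than a FOXP3-sorted population. The labels do not say whether the libraries of a group came from separate animals or cultures, so p-values measure the spread between these libraries, which may be technical.

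Chemokine receptors are G protein-coupled receptors that steer leukocytes along gradients of small secreted proteins, the chemokines. A naïve T cell carries receptors that take it into lymph nodes and keep it circulating. After activation it exchanges these for receptors that lead to inflamed tissue, skin, gut, bone marrow or the B cell follicle, and the set it gains differs between T helper and regulatory subsets. CCR4 and CCR8 are linked to skin homing, Th2 cells and Treg cells, CCR6 and CCR9 to mucosal tissue, CCR2, CXCR3 and CXCR6 to inflamed tissue and Th1 responses, CXCR4 to bone marrow, and CXCR5 to the follicle.

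On the reference assembly GRCm38 with the GENCODE M21 annotation, 6 of the 9 genes lie on chromosome 9, and Ccr9, Cxcr6 and Ccr2 lie within 435 kb of each other there. Ccr6 is on chromosome 17, Cxcr3 on chromosome X and Cxcr4 on chromosome 1, 44.8 Mb from Aim2. All 9 are protein coding, and the coordinates given with each gene are those of this build and annotation. RefSeq promoter windows (GRCm38.p6) were found for 8 of the 9 genes, all but Cxcr5. The windows of the 3 genes that rose in culture and of Cxcr4, which fell furthest from a high level, are printed here because the culture comparison turns on these 4 genes. Each runs 5′ to 3′ on the gene's own strand over the 250 bases before the start annotated by RefSeq (for Ccr6, the first of 2), and capitals mark matches to the 4 motifs searched on both strands. These are AP-1 (TGANTCA), the STAT binding GAS element (TTCNNNGAA), a KLF box (CCNCNCCC) and a GATA site (AGATAA).
Ccr4, chr9:114496545-114496794, minus strand: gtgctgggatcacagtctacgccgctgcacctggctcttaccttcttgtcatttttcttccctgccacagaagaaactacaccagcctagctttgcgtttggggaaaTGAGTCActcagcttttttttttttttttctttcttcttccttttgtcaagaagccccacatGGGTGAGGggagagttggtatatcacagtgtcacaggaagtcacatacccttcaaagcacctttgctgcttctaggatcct
Ccr6, chr17:8235793-8236042, plus strand: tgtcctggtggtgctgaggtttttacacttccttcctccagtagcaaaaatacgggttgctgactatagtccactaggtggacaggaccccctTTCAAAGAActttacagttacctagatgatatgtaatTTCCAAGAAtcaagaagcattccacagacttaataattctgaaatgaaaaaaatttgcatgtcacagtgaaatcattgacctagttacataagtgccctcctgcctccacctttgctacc
Ccr8, chr9:120091883-120092132, plus strand: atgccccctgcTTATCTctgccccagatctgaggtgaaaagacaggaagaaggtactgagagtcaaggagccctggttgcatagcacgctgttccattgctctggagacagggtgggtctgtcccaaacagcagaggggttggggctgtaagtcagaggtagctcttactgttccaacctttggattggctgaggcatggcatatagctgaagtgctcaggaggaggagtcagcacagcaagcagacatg
Cxcr4, chr1:128592300-128592549, minus strand: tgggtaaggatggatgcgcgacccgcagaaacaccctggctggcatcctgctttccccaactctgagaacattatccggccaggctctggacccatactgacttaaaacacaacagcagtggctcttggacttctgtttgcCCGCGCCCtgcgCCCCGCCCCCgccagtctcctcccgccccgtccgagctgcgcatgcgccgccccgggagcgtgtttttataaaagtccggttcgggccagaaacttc

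The Ccr4 window held an AP-1 match beginning 143 bases before the RefSeq start and a KLF match at 81 bases. This window lies inside the GENCODE M21 gene model of Ccr4 (chr9:114490316-114504916, minus strand), so it does not precede the start of that model. The Ccr6 window held 2 GAS matches, at 157 and 120 bases. The Ccr8 window held a GATA match at 239 bases, and the Cxcr4 window held 3 KLF matches, at 109, 97 and 95 bases, of which the last 2 overlap. Of 32851 mouse promoter windows of this length, 6.7% held an AP-1 match, 7.0% a GAS match, 45.9% a KLF match and 10% a GATA match. A match is a run of letters and not a shown binding site, and a motif without a match is only absent from these bases.

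Levels are given as CPM, a gene's count divided by the library total and scaled by edgeR's TMM factors over all 16 libraries. The deposited expected counts summed to between 22516424 and 34533316 per library (median 28163327), so that 3 counts, taken as the floor, corresponded to 0.0869 to 0.1332 CPM. Aim2 itself was at 32.0 to 37.8 CPM in WT Tn and 36.1 to 43.7 CPM in WT Treg, against 6.44 to 9.21 CPM in Aim2-/- Tn and 7.28 to 11.0 CPM in Aim2-/- Treg, so the genotype labels held in every library. The 5 naïve CD4 T cell markers (Cd3e, Cd4, Lef1, Tcf7, Il7r) summed to between 3744 and 4196 CPM in Tn and between 1030 and 1218 CPM in Treg. The 5 markers of activated and induced Treg cells (Il2ra, Foxp3, Ctla4, Tnfrsf4, Mki67) summed to 36.3 to 102 CPM in Tn and 3040 to 3816 CPM in Treg. Of these, Ctla4 did not separate the states. It averaged 47.3 CPM in WT Tn and 73.6 CPM in WT Treg, and 71.0 CPM in Aim2-/- Tn and 69.8 CPM in Aim2-/- Treg. In such bulk RNA, fewer cells with a transcript and less transcript per cell cannot be told apart.

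Some libraries stood apart from the others of their culture state on the first principal component of all tested genes, which carried 43.1% of the variance in Treg and 35.8% in Tn. In Treg these were WT replicate 4 and Aim2-/- replicates 3 and 4, with scores of 27.2, 30.1 and 37.2 against -29.9 to -7.2 for the other 5. In Tn they were WT replicates 3 and 4, with scores of 42.8 and 26.2. Aim2-/- Tn replicate 3 followed at 19.6, and the other 5 lay between -39.5 and 1.9. The score of 19.6 is nearer to 26.2 than to 1.9, so taking only the 2 WT libraries was a choice. Leaving out Aim2-/- Tn replicate 3 together with them was not tried. Some receptors differed along this split. It was drawn from all tested genes, so many genes differ along it. The share of all genes that separates the same libraries was not counted, so the separation is not shown to be particular to the receptors. In the 3 Treg libraries Ccr4, Ccr6, Ccr8, Cxcr4, Cxcr5 and Cxcr6 were all below the other 5 Treg libraries, while Ccr2, Cxcr3 and Ccr9 overlapped. Ccr6, for example, was at 12.1 to 19.0 CPM in the 3 and at 44.7 to 70.5 CPM in the 5. In the same 3 libraries Foxp3 was at 283 to 334 CPM against 500 to 574, whereas the Th1 genes Tbx21 (129 to 140 CPM against 14.9 to 76.3) and Ifng (13.8 to 25.8 CPM against 0.943 to 6.66) were higher. In the 2 Tn libraries Ccr8 and Cxcr4 were below and Ccr9 above the other 6, beside Ccr7 at 408 to 414 CPM against 627 to 1558 and Mki67 at 10.4 to 11.3 CPM against 4.34 to 5.93. These sets of libraries were chosen after seeing the data. Their part in the results that follow was not tested beyond leaving them out.

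**Figure D1:**
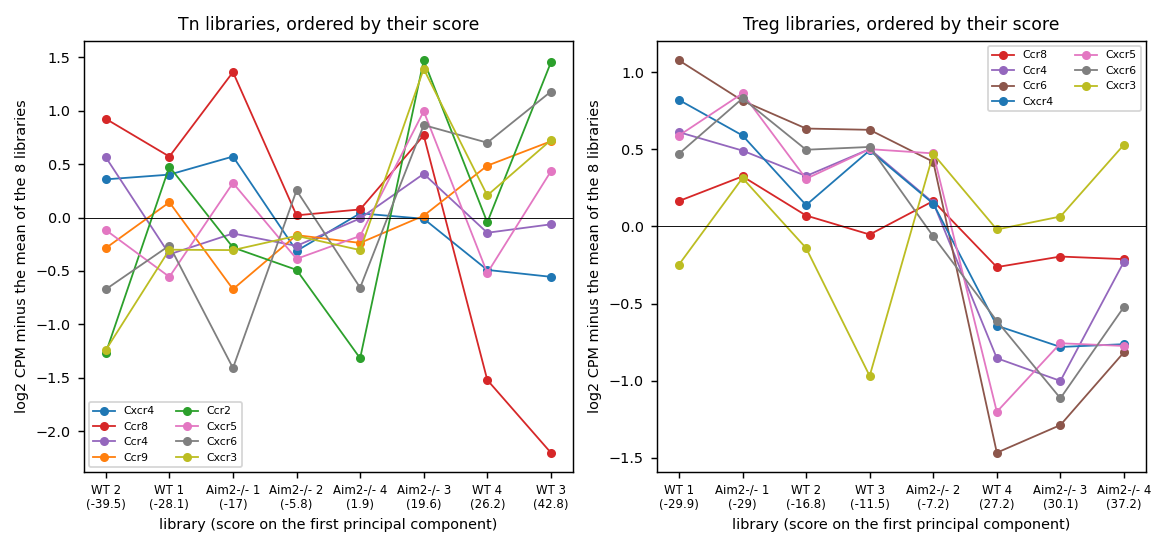
Difference of log2 CPM from the mean over the 8 libraries of a culture state (y axis) for each receptor not near 0 counts there, with the libraries in order of their first principal component score (x axis), with Tn and Treg in separate panels. In Treg the 3 libraries with the highest scores lie below the others for 6 receptors, most clearly for Ccr6 (12.1 to 19.0 CPM against 44.7 to 70.5).

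The main question was which receptors changed when naïve cells were cultured under Treg conditions. In both genotypes Ccr4, Ccr8 and Ccr6 rose, Cxcr4, Ccr9 and Ccr2 fell, and Cxcr3, Cxcr5 and Cxcr6 did not pass the test (edgeR's quasi-likelihood test, Benjamini-Hochberg adjusted p under 0.05). Thus 6 of 9 receptors were called in WT, 3 higher and 3 lower, where 76.9% of all tested genes were called, 37.7% higher and 39.2% lower. The same counts held in Aim2-/- cells, where 79.3% of all tested genes were called, 39.1% higher and 40.2% lower. The share of receptors called was therefore no larger than that of all genes. Ccr6, Ccr2 and Ccr9 passed the count filter only through the state where they were high, which favours a call. In WT the same held for Ccr8, which had 3 and 6 counts in Tn replicates 3 and 4. The median log2 difference of the 9 was -0.30 in WT and -0.11 in Aim2-/-, beside -0.05 and -0.04 over all tested genes. Without the Tn or Treg libraries that stood apart it was 0.45 in WT and 0.06 in Aim2-/-, respectively, so its sign depended on those libraries. The Treg and Tn libraries did not overlap for the 6 called receptors in WT or in Aim2-/-, against 72.9% and 74.8% of all tested genes. The 6 calls held in each of the alternatives in which the gene was still tested, 233 of 233 over both genotypes.

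**Figure D2:**
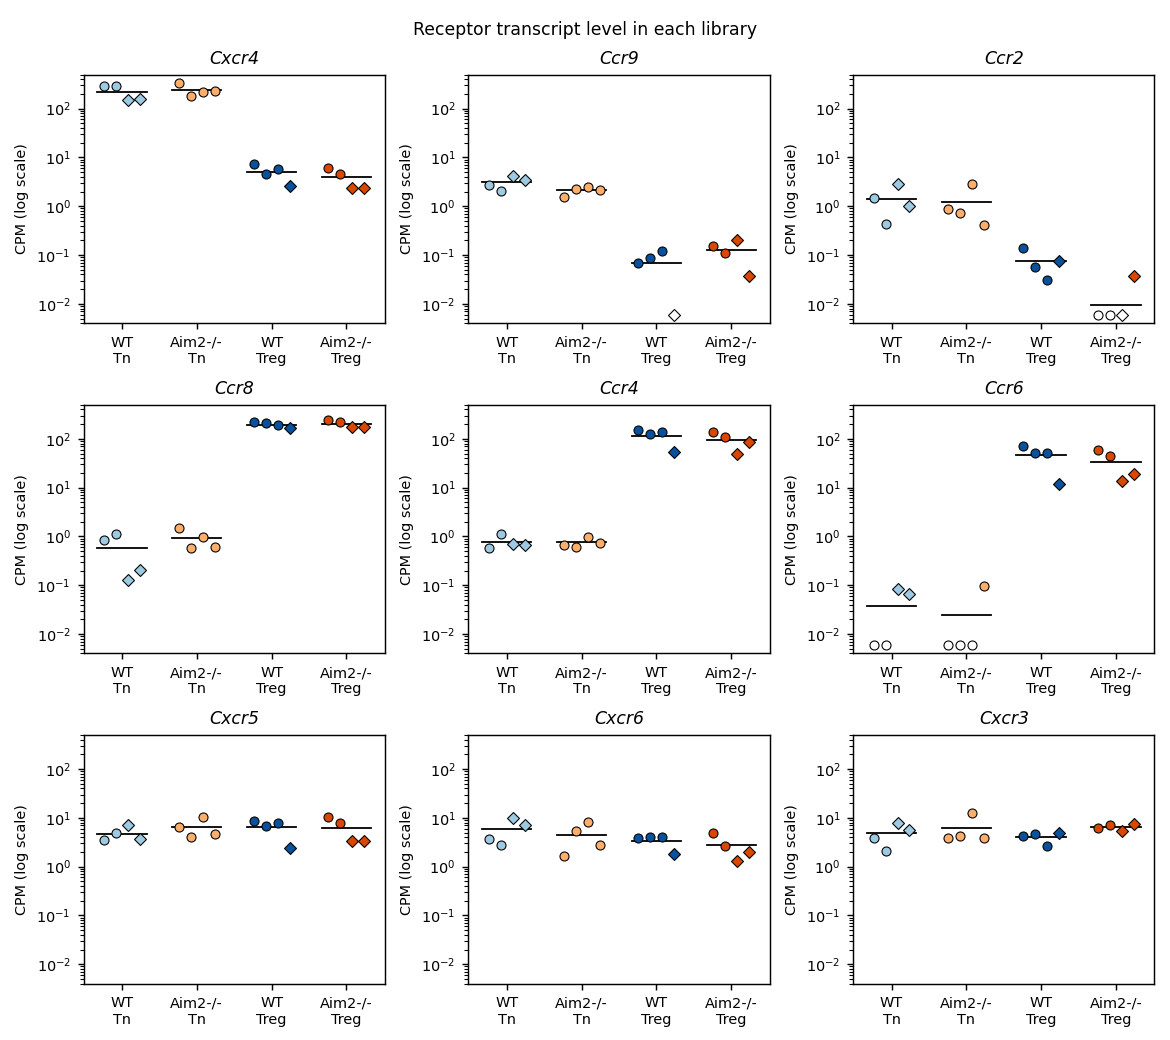
CPM of each of the 9 receptors in each library (log10 y axis, 1 panel per gene, x axis the 4 groups), with 1 symbol per library, a line at the mean of 4, open symbols at the lower edge for a count of 0 and diamonds for the libraries that stood apart. Ccr4, Ccr6 and Ccr8 separate upward in Treg, Ccr2, Ccr9 and Cxcr4 downward, and Cxcr3, Cxcr5 and Cxcr6 overlap.

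Ccr8 (chr9:120092114-120094906, plus strand) encodes the receptor for CCL1 and is a surface marker of Treg cells in tissues and tumours. WT Tn replicates 1 to 4 held Ccr8 at 0.861, 1.10, 0.126 and 0.202 CPM, and Aim2-/- Tn replicates at 1.49, 0.588, 0.988 and 0.611 CPM. After culture, WT libraries held 222, 208, 191 and 165 CPM, Aim2-/- libraries 248, 222, 173 and 171 CPM. Every Treg library was far above every Tn library, and the lowest Treg values belonged to the 3 libraries that stood apart. The difference was 8.35 on the log2 scale in WT (SE 0.42, adjusted p = 1.42e-07) and 7.76 in Aim2-/- (SE 0.26, adjusted p = 1.47e-09). WT Tn replicates 3 and 4, the low ones, widened the WT value, which was 7.64 without them.

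Ccr4 (chr9:114490316-114504916, minus strand), the receptor for CCL17 and CCL22 on skin-homing, Th2 and Treg cells, was at 0.586, 1.10, 0.712 and 0.674 CPM in WT Tn and at 0.671, 0.619, 0.988 and 0.740 CPM in Aim2-/- Tn. WT Treg libraries held 151, 124, 140 and 54.7 CPM and Aim2-/- Treg libraries 139, 110, 49.4 and 84.4 CPM. The culture states were far apart in both genotypes, and within Treg the 3 libraries that stood apart were the low ones. Ccr4 rose by 7.20 (SE 0.40, adjusted p = 2.59e-07) in WT and by 6.93 (SE 0.37, adjusted p = 4.08e-08) in Aim2-/- cells on the log2 scale. Neither Ccr4 nor Ccr8 overlaps another annotated gene on either strand.

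Ccr6 (chr17:8236043-8257141, plus strand) encodes the receptor for CCL20, carried by Th17 cells and by Treg cells of mucosal tissue. It was hardly detected in Tn, with 0, 0, 2 and 2 counts in WT and 0, 0, 0 and 3 counts in Aim2-/- libraries. WT Treg libraries held 70.5, 51.9, 51.6 and 12.1 CPM, Aim2-/- Treg libraries 58.8, 44.7, 13.7 and 19.0 CPM. All 8 Treg libraries were thus far above all 8 Tn libraries, and the highest WT Treg library was 5.8 times the lowest. Summed over a group, 5871 counts in WT Treg stood against 4 in WT Tn, a ratio of 1286 per read sequenced (exact 95% interval 502 to 4721). In Aim2-/- cells 3672 counts stood against 3, a ratio of 1315 (450 to 6380). These intervals cover counting error only. The change passed the test in both genotypes (adjusted p = 4.1e-06 and 1.27e-06). The SD of log2 CPM over the 4 WT Treg libraries was 1.14, above that of 99.6% of genes, whose median was 0.14.

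Ccr9 (chr9:123678439-123784330, plus strand), the receptor for the gut chemokine CCL25 on thymocytes and gut-homing T cells, moved the other way. WT Tn libraries held 2.76, 2.05, 4.10 and 3.50 CPM, and Aim2-/- Tn libraries 1.57, 2.23, 2.53 and 2.12 CPM. The WT Treg values were 0.0684, 0.0869, 0.122 and 0 CPM, those of Aim2-/- Treg 0.153, 0.109, 0.205 and 0.0377 CPM. All Treg libraries were below all Tn libraries, most of them at or under the level of the floor. The Tn to Treg ratio of summed counts was 42.4 in WT (334 against 9 counts, 95% interval 22 to 93.5) and 16.5 in Aim2-/- (248 against 14 counts, 9.64 to 30.6). Both intervals cover counting error only. The change passed edgeR's test in both genotypes (adjusted p = 3.82e-06 and 1.59e-06). Part of the Ccr9 gene model overlaps others, since 18.8% of its exon bases lie opposite AC165425.1 and 2.6% are shared with Gm17200 on the same strand. Counts of Ccr9 were not whole in 9 of 16 libraries, so its reads were partly divided between genes. The same held for Cxcr5 in 9 and for Ccr2 in 5 of the 16 libraries. The libraries were made with a stranded kit, but the strand setting of the counting is not given in the sources used here, so antisense reads may be included.

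Cxcr4 (chr1:128588199-128592293, minus strand) encodes the CXCL12 receptor that retains cells in bone marrow and is also carried by naïve T cells. In Tn it stood high, with 297, 288, 153 and 160 CPM across the WT libraries and 334, 181, 223 and 231 CPM across the Aim2-/- ones. WT Treg libraries were left with 7.25, 4.52, 5.78 and 2.63 CPM, and Aim2-/- Treg libraries with 6.18, 4.55, 2.39 and 2.42 CPM. The states did not overlap. The lowest Treg values again came from the 3 libraries that stood apart, and the lowest Tn values from the 2 WT ones. Cxcr4 fell by 5.52 (SE 0.38, adjusted p = 9.64e-07) in WT and by 6.02 (SE 0.33, adjusted p = 5.15e-08) in Aim2-/- cells on the log2 scale.

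Cxcr5 (chr9:44511787-44561877, minus strand), the CXCL13 receptor of follicular T cells and B cells, was at 3.55, 4.81, 7.04 and 3.64 CPM in WT Tn and at 6.53, 3.99, 10.4 and 4.63 CPM in Aim2-/- Tn. Values for WT Treg were 8.44, 6.95, 7.94 and 2.44 CPM, for Aim2-/- Treg 10.2, 7.79, 3.32 and 3.28 CPM. The states overlapped in both genotypes, with WT Treg libraries on either side of the WT Tn values and Aim2-/- Treg libraries within or below those of Aim2-/- Tn. The log2 difference was 0.39 (95% interval -0.45 to 1.23, adjusted p = 0.356) in WT and -0.11 (-1.04 to 0.83, adjusted p = 0.825) in Aim2-/-. This value depended on the libraries that stood apart. In WT it was 0.66 (adjusted p = 0.0356) without WT Treg replicate 4, and in Aim2-/- it was 0.45 (adjusted p = 0.256) without Treg replicates 3 and 4. In the B cell marker list Ms4a1 was at 0 in all 16 libraries and the list's 6 genes summed to at most 3.04 CPM. Other B cell markers were detected in Tn. Cd79a held 18 to 24 counts in WT Tn and 30 to 55 in Aim2-/- Tn, and Cd22 held 12 to 24 and 19 to 43. Whether B cells contributed to the Cxcr5 counts was not tested. Of the exon bases of Cxcr5, 3.3% lie opposite Bcl9l.

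Among the receptors of inflamed tissue, Ccr2 (chr9:124101950-124113557, plus strand), the CCL2 receptor best known from monocytes and memory T cells, was low in Tn and nearly absent from Treg. It was at 1.45, 0.433, 2.85 and 1.01 CPM in WT Tn and at 0.858, 0.742, 2.89 and 0.418 CPM in Aim2-/- Tn. Treg libraries held 4, 2, 1 and 2 counts in WT and 0, 0, 0 and 1 count in Aim2-/-. All Tn libraries were above all Treg libraries of their genotype, and replicate 3 was the highest Tn library in both. The Tn to Treg ratio of summed counts was 19.0 in WT (150 against 9 counts, 95% interval 9.76 to 42.4) and 129 in Aim2-/- (139 against 1 count, 22.8 to 5146). Both intervals cover counting error only and not the spread between libraries. The change passed edgeR's test in both genotypes (adjusted p = 0.000251 and 0.000124). Summed levels of markers of several other cell types were also lower in Treg, but not those of effector and memory T cells. The 6 effector and memory markers summed to 59.8 to 109 CPM in Tn and 127 to 169 CPM in Treg. Most of the WT Treg sum was Pdcd1, which averaged 2.3 CPM in WT Tn and 110 CPM in WT Treg. In the same 2 groups Ccl5 (15.9 and 0.0926 CPM), Il18r1 (53.5 and 34.2 CPM) and Gzmk (0.859 and 0.44 CPM) had lower means in Treg. Ifng (3.48 and 6.91 CPM) and Il10 (0.0936 and 0.225 CPM) had higher means there. In WT, 1 of these markers was called higher and 2 lower. The NK list (Ncr1, Klrb1c, Eomes) summed to 12.6 to 34.6 CPM in Tn and 1.34 to 6.17 CPM in Treg, with Ncr1 at 0 in every Treg library. The 7 myeloid markers summed to 12.2 to 19.7 CPM in Tn and 1.81 to 3.97 CPM in Treg, with Lyz2 at 0 in every Treg library and S100a8 at 0 in all 16 libraries, while Adgre1 averaged 0.206 CPM in WT Tn and 0.285 CPM in WT Treg. Their part in the fall of Ccr2 was not tested. Its closest pattern was that of Klrb1c, an NK cell receptor gene (r = 0.968 over the 16 libraries).

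Cxcr3 (chrX:101731535-101734269, minus strand) encodes the Th1-associated receptor for CXCL9 and CXCL10. WT Tn libraries held 3.93, 2.05, 8.0 and 5.59 CPM, and Aim2-/- Tn libraries 3.92, 4.30, 12.7 and 3.92 CPM. Cultured WT cells gave 4.27, 4.60, 2.59 and 5.0 CPM, cultured Aim2-/- cells 6.30, 7.02, 5.30 and 7.32 CPM. The culture states overlapped in both genotypes. The log2 difference between them was -0.30 (95% interval -1.15 to 0.54, adjusted p = 0.477) in WT and 0.01 (-0.82 to 0.84, adjusted p = 0.981) in Aim2-/-. Without Aim2-/- Tn replicate 3, the highest of all, the latter was 0.63 (adjusted p = 0.00565).

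Cxcr6 (chr9:123806475-123811760, plus strand), the CXCL16 receptor of tissue-resident and activated T cells, was at 3.72, 2.80, 10.1 and 7.25 CPM in WT Tn and at 1.68, 5.32, 8.13 and 2.83 CPM in Aim2-/- Tn. Of the Treg libraries, WT ones held 3.90, 3.97, 4.02 and 1.84 CPM and Aim2-/- ones 5.0, 2.69, 1.30 and 1.96 CPM. Treg means were below Tn means in both genotypes but the libraries overlapped. The log2 difference was -0.85 (95% interval -1.78 to 0.09, adjusted p = 0.0886) in WT and -0.77 (-1.92 to 0.37, adjusted p = 0.189) in Aim2-/-. Without WT Tn replicate 2 the WT value was -1.07 (adjusted p = 0.0275). Cxcr6 lies inside Fyco1 on the opposite strand and shares no exon base with it.

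The libraries numbered 1 and 2 and those numbered 3 and 4 gave different pictures for the 3 uncalled receptors. With replicates 1 and 2 alone, Cxcr5 was higher in Treg by 0.88 in WT (adjusted p = 0.00448) and by 0.74 in Aim2-/- (adjusted p = 0.0434), and Cxcr3 by 0.65 in Aim2-/- (adjusted p = 0.0225). With replicates 3 and 4 alone, Cxcr6 was lower by 1.62 in WT (log2 difference -1.62, adjusted p = 0.0142) and by 1.81 in Aim2-/- (-1.81, adjusted p = 0.0169), and Cxcr5 was lower in Aim2-/- (-1.25, adjusted p = 0.0135). A fit with a term for this split over all 4 replicates called none of the 3 in either genotype, and the labels give the numbers no meaning.

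**Figure D3:**
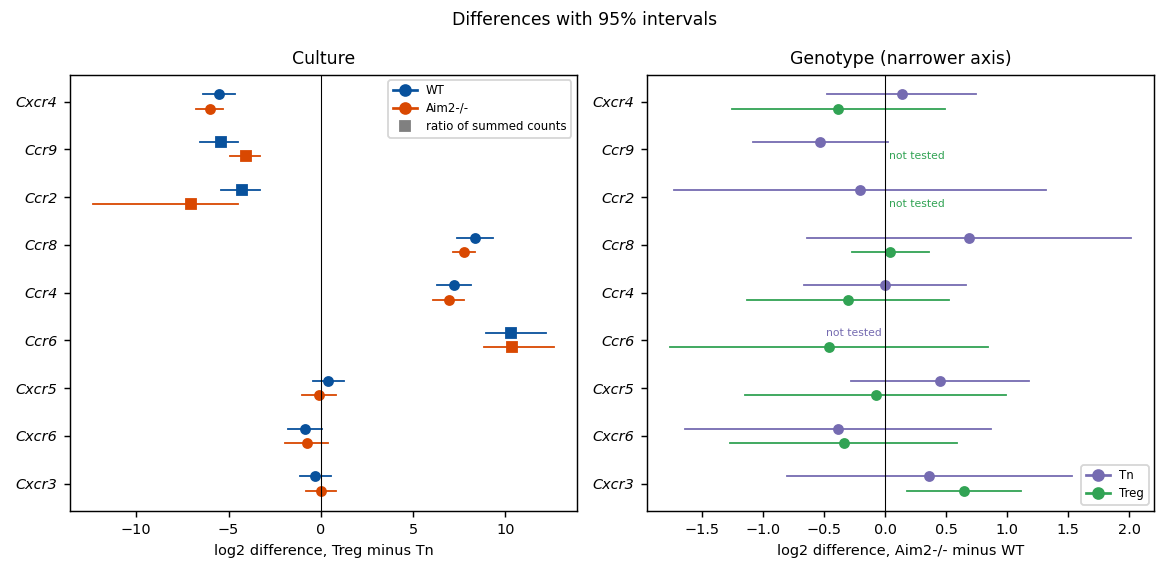
Log2 differences with 95% intervals for the 9 receptors (rows), Treg minus Tn by genotype on the left and Aim2-/- minus WT by culture state on the right, with circles for edgeR estimates and squares for ratios of summed counts with counting intervals (Ccr2, Ccr6 and Ccr9). The edgeR estimates on the left run from -6.02 for Cxcr4 in Aim2-/- cells to 8.35 for Ccr8 in WT, and right-hand intervals include 0 except for Cxcr3 in Treg (0.17 to 1.12).

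To compare receptors with each other, CPM were divided by the exon length of each gene model in kilobases. In WT Tn, Cxcr4 stood at 124 ± 43.5 CPM per kb (SD, n = 4) and made up 92.5% ± 4.77 of the summed level of the 9 genes. Cxcr6 (3.09), Cxcr3 (2.83) and Cxcr5 (1.43 CPM per kb) came next with overlapping ranges, followed by Ccr8 (0.488), Ccr9 (0.302), Ccr4 (0.249) and Ccr2 (0.212 CPM per kb), and Ccr6 (0.0163) was last. Aim2-/- Tn had the same receptor in front, Cxcr4 at 134 ± 35.9 CPM per kb and 93.3% ± 3.66 of the sum. In WT Treg the leading receptor of the 9 was Ccr8, at 167 ± 20.7 CPM per kb and 72.4% ± 7.19 of the sum. Ccr4 followed at 37.9 ± 14.0 and Ccr6 at 20.1 ± 10.6 CPM per kb, whose ranges overlapped. Cxcr4 (2.79), Cxcr3 (2.38), Cxcr5 (1.93) and Cxcr6 (1.78 CPM per kb) could not be ordered beyond their spread, and Ccr2 (0.0111) and Ccr9 (0.00675) were last. Aim2-/- Treg had Ccr8 at 173 ± 32.1, Ccr4 at 30.9 ± 12.3 and Ccr6 at 14.7 ± 9.19 CPM per kb. Cxcr4 thus went from most of the summed level of these 9 genes to a small share. The sum over the 9 genes was 133 ± 40.6 and 143 ± 35.1 CPM per kb in WT and Aim2-/- Tn and 234 ± 46.2 and 228 ± 55.7 CPM per kb in WT and Aim2-/- Treg. Shares do not cover other chemokine receptors. Ccr7, outside the 9, averaged 939 CPM in WT Tn and 289 CPM in WT Treg, not divided by length, beside 224 CPM for Cxcr4 in WT Tn and 196 CPM for Ccr8 in WT Treg.

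**Figure D4:**
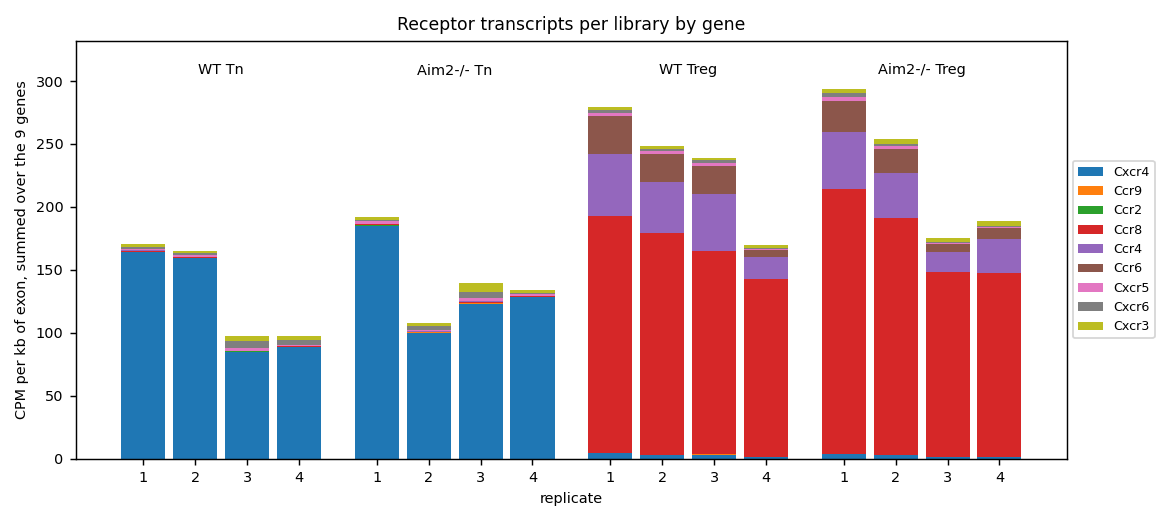
Summed level of the 9 receptors in each library (y axis, CPM per kb of exon, stacked by gene; x axis, the 16 libraries by group). Cxcr4 fills most of each Tn bar (92.5% in WT and 93.3% in Aim2-/- on average), and Ccr8 most of each Treg bar (72.4% and 76.8%), with Ccr4 and Ccr6 next.

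The effect of genotype was then asked in each culture state. In Tn, 0 of the 8 receptors tested were called by edgeR (Ccr6 had too few counts to be tested), beside 0.231% of all genes, and none of the 8 had an unadjusted p under 0.05. In Treg, 0 of 7 were called, beside 0.219% of all genes, with 1 receptor at an unadjusted p under 0.05 (Ccr2 and Ccr9 were not tested). DESeq2 and limma-voom also called 0 receptors in both states. Over all genes, 1389 in Tn and 304 in Treg had an unadjusted p under 0.05 in edgeR's test. The median log2 difference of the receptors was 0.07 in Tn and -0.31 in Treg, beside 0.01 and 0.00 over all tested genes. Without the libraries that stood apart it was 0.14 in Tn and -0.05 in Treg. In Tn no receptor separated the genotypes, against 6.85% of all tested genes, and in Treg 1 did, Cxcr3, against 2.33%.

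Cxcr3 averaged 4.12 ± 1.06 CPM over WT Treg libraries and 6.49 ± 0.898 CPM over Aim2-/- Treg libraries (SD, n = 4). The lowest Aim2-/- library, replicate 3 at 5.30 CPM, was just above the highest WT library, replicate 4 at 5.0 CPM. The log2 difference was 0.65 (SE 0.21, 95% interval 0.17 to 1.12). Its unadjusted p was 0.0127 and its adjusted p 0.999 in edgeR's test, so it did not pass. The difference was above 0 in each of 20 alternatives, between 0.47 and 0.79, with adjusted p between 0.141 and 1.0. Without the 3 Treg libraries that stood apart it was 0.79. In Tn the same receptor had a log2 difference of 0.36 (SE 0.51, adjusted p = 0.830) and its ranges overlapped.

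Ccr9 averaged 3.10 ± 0.894 CPM over WT Tn libraries and 2.11 ± 0.401 CPM over Aim2-/- Tn libraries (SD, n = 4), with WT replicates 3 and 4, which stood apart, as the high ones. Its log2 difference was -0.53 (SE 0.25, 95% interval -1.09 to 0.02, unadjusted p = 0.0581, adjusted p = 0.499), and it was -0.17 without those 2 libraries. For Ccr8 in Tn the log2 difference was 0.69 (SE 0.60, adjusted p = 0.704) and -0.09 without the same 2 libraries. The remaining receptors in Tn had log2 differences between -0.39 (Cxcr6, SE 0.55) and 0.45 (Cxcr5, SE 0.33). Cxcr4 in Tn was at 0.13 (SE 0.27, adjusted p = 0.883). With replicates 3 and 4 alone it was 0.54 (adjusted p = 0.0205), the sole receptor called for genotype under any alternative. In that subset the WT libraries are the 2 that stood apart, and without these 2 the difference was -0.25.

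Of the receptors that rose in culture, Ccr8 averaged 196 ± 24.3 CPM over WT Treg and 203 ± 37.7 CPM over Aim2-/- Treg libraries, a log2 difference of 0.04 whose 95% interval ran from -0.28 to 0.36. For Ccr4 the values were 117 ± 43.2 and 95.5 ± 37.9 CPM and the log2 difference -0.31 (-1.14 to 0.52). For Ccr6 they were 46.5 ± 24.6 and 34.0 ± 21.3 CPM with a log2 difference of -0.46 (-1.76 to 0.84). The interval was narrowest for Ccr8, while for Ccr4 and Ccr6 it left room for sizeable differences in either direction. Aim2-/- Treg includes 2 of the 3 libraries that stood apart and WT Treg 1. Without the 3, the log2 differences in Treg were 0.17 for Ccr8, -0.16 for Ccr4, -0.17 for Ccr6, -0.13 for Cxcr4, -0.05 for Cxcr6 and 0.20 for Cxcr5, none of them called.

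Whether the culture response itself differed between genotypes was tested as an interaction over all 16 libraries. It was called for 0 of 9 receptors by edgeR, beside 0.0205% of all tested genes (513 genes and none of the receptors had an unadjusted p under 0.05). DESeq2 and limma-voom also called 0 of 9. Of the receptors, Ccr9 had the lowest unadjusted p (0.0724, adjusted p = 1.0), with Treg counts near the floor in both genotypes, so no size is given.

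Genes that act with these receptors were then counted in 7 lists. For genotype, edgeR called 0 of their 65 tested genes in Tn, 0 of 69 in Treg and 0 of 73 for the interaction, with 4, 0 and 3 genes at an unadjusted p under 0.05. DESeq2 called 1, Klf2 in Tn, and limma-voom 0. In the WT culture comparison, 60 of 72 tested genes of the lists were called, beside 76.9% of all tested genes (37.7% higher and 39.2% lower). The counts of each list stand against these shares. Genes near 0 counts in either state, such as Ccl1 and Ccl20, passed the count filter only through the other state, which favours a call.

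Of 14 ligands of the 9 receptors, 5 were tested, 2 rose and 1 fell. Ccl1, the CCR8 ligand, went from at most 0.0419 CPM in WT Tn to between 2.5 and 7.11 CPM in WT Treg, at least 40.1-fold higher against a floor of 3 counts in every Tn library. Ccl20, the CCR6 ligand, had no count in any Tn library and was at 2.39 to 3.87 CPM in WT Treg and 2.21 to 9.51 CPM in Aim2-/- Treg, at least 25.9-fold and 46.5-fold higher against that floor. These are ligands of 2 of the 3 receptors that rose. The CCR4 ligands Ccl17 and Ccl22 had at most 3 and 5 counts in a WT Treg library and were not tested. In WT, 37.7% of all tested genes were called higher, so 2 of 5 ligands is not read as a result about the list. Cxcl10, a CXCR3 ligand, ranged from 0.628 to 3.19 CPM in WT Tn and from 0.183 to 0.550 CPM in WT Treg, and fell by 2.27 on the log2 scale (SE 0.56, adjusted p = 0.00398). Ccl25, the CCR9 ligand (0.30, SE 0.16, adjusted p = 0.123), and Cxcl16, the CXCR6 ligand (0.15, SE 0.44, adjusted p = 0.766), did not pass. Among 11 other chemokines, 5 were tested, 3 rose and 2 fell, with Ccl4 (5.62, SE 0.68, and 4.78 without WT Treg replicate 4) and Ccl3 (4.70, SE 0.50) higher and Ccl27a (-1.40, SE 0.31) lower on the log2 scale in WT Treg. The effector chemokine Ccl5 fell from between 11.1 and 26.7 CPM in WT Tn to between 0.0304 and 0.150 CPM in WT Treg.

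Of 22 other chemoattractant receptors, 10 were tested in WT and all 10 were called, 3 higher and 7 lower, with a median of -2.54 beside -0.05 over all genes. Some, such as Gpr15 and Cmklr1, passed the count filter only through the state where they were high. The count of 10 is therefore not read as a result about this list. Gpr15, a gut-homing receptor, was at 0.0345 to 0.101 CPM in WT Tn and 1.16 to 2.18 CPM in WT Treg, and Cmklr1, the chemerin receptor, at 0 to 0.103 CPM and 3.31 to 5.23 CPM. Gpr183, an oxysterol receptor of lymphoid tissue, fell by 4.85 (SE 0.39), and S1pr1, which directs exit from lymph nodes, fell by 4.41 (SE 0.46) on the log2 scale.

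Downstream of the receptors, 21 of 22 signalling genes were tested and 7 rose and 9 fell in WT (median -0.16). Gng2, a G protein subunit (2.47, SE 0.12), and Pik3cg, the PI3K-gamma catalytic subunit (1.36, SE 0.13), rose most. Rasgrp2, an activator of RAP1 in integrin activation (-6.24, SE 0.20), and Pik3r5, a regulatory subunit of PI3K-gamma (-3.05, SE 0.09), fell most on the log2 scale. Rasgrp2 stands on 2 rows of the tables, as do the markers Ctla4 and Itgam, and Ccl27a on 3, and values are for the 1 row matched. Of 14 desensitisation genes 12 were tested, 3 rose and 8 fell (median -0.88), with the RGS genes Rgs16 (5.81, SE 0.29) and Rgs1 (1.91, SE 0.31) higher and Rgs2 (-4.92, SE 0.45) and Rgs14 (-3.38, SE 0.12) lower. RGS proteins shorten G protein signals from such receptors.

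Of 10 homing integrin and selectin ligand genes, 5 rose and 2 fell in WT (median 1.05). Fut7, which makes the selectin ligands used in skin homing, rose by 7.34 (SE 0.20) on the log2 scale. Fut4, a related enzyme, was at no more than 0.0419 CPM in WT Tn and at 1.67 to 3.20 CPM in WT Treg. The gut-homing integrin chains Itga4 (-2.89, SE 0.21) and Itgb7 (-2.60, SE 0.11) fell. Of the other integrin chains in the list, Itgb1 rose by 2.02 on the log2 scale. Itgae rose too, from 0 to 0.315 CPM across WT Tn libraries to between 2.78 and 3.93 CPM in WT Treg. Itgal and Itgb2 did not pass. Of 9 transcription factors, 3 rose and 5 fell (median -0.70). Foxp3, the factor that defines Treg cells, rose by 7.41 (SE 0.35) and Tbx21, the Th1 factor, by 4.10 (SE 0.72) on the log2 scale, or by 3.19 without WT Treg replicate 4. Klf2, which maintains S1pr1 and the naïve trafficking program, fell by 3.61 (SE 0.15), and Eomes fell by 2.41 (SE 0.41).

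**Figure D5:**
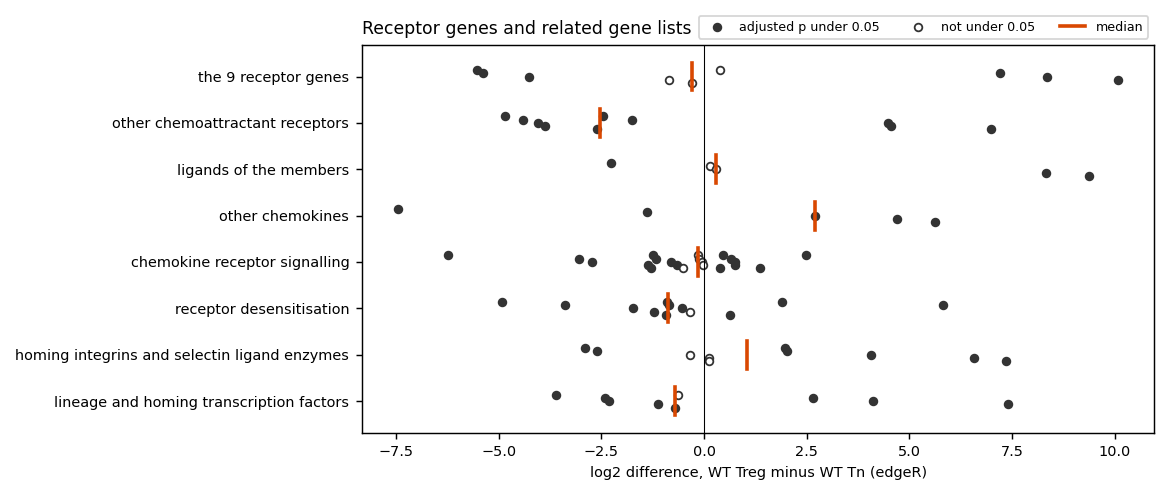
Log2 difference of WT Treg against WT Tn (x axis, edgeR estimates) for the 9 receptors and for 7 lists of related genes (rows), with 1 point per tested gene, filled where adjusted p was under 0.05 (sizes for genes near 0 counts depend on the fit's prior count), and a bar at each median. The receptors spread widely on both sides of 0 around a median of -0.30, and other chemoattractant receptors have a median of -2.54.

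The genes with the most similar pattern over the 16 libraries were found for each receptor by Pearson's r of log2 CPM against 14668 other genes. These are descriptions, since the libraries share 2 culture states and depth. For the receptors that follow the culture, high values were common. Cxcr4 had r = 0.998 with Btg2 and 0.996 with Gpr183, with 1828 genes above 0.95. Ccr8 had 0.998 with Cks2 and 0.997 with Tuba1c (2398 genes above 0.95), and Ccr4 had 0.996 with Eea1 and with Bdh2 (2549 genes). Ccr6 had 0.995 with Pdzk1ip1 and H2-Eb2 (2157 genes), and Ccr9 had 0.986 with Gm42688 and Bbs2 (1197 genes). Ccr2 had 0.968 with Klrb1c and 0.956 with Gm4956, among 8 genes above 0.95. The 3 uncalled receptors had no partner above 0.95, with top values of 0.815 and 0.814 for Cxcr3 (Pdcd2, Asl), 0.859 and 0.830 for Cxcr5 (Bckdha, Fech) and 0.869 and 0.850 for Cxcr6 (Asb2, 2010008C14Rik).

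With the 4 group means removed, so that only differences between libraries of a group remained, the closest genes were Gtf2b and Sod1 for Ccr8 (r = 0.972 and 0.969), Tasp1 and Usp3 for Cxcr4 (0.972 and 0.965) and Mfge8 and Dap for Cxcr5 (0.959 and 0.953). Those of Ccr4 were Cd83 and Zfp862-ps (0.939 and 0.917), of Ccr2 Klrc1 and Ap1s1 (0.935 and 0.910), and of Cxcr3 Drg1 and Tstd3 (0.933 and 0.926). Those of Ccr6 were Pdzk1ip1 and AC129217.1 (0.927 and 0.924), of Cxcr6 Slfn9 and Marveld1 (0.912 and 0.909), and of Ccr9 Rfxank and Gm42688 (0.910 and 0.887). Pdzk1ip1 and Gm42688 were thus among the closest genes of Ccr6 and Ccr9 on both measures.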

How the data were processed

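Splenic CD4+ T cells gave 16 stranded mRNA libraries in 4 groups of 4, sequenced as single-end reads. Per the labels and the study's methods, the authors aligned reads to GRCm38 with STAR and counted genes with RSEM on a GENCODE annotation, and they deposited expected counts per gene and library without normalization; tool versions and the strand setting of the counting are not given in the sources used here. Here the expected counts were rounded, genes reaching 10 counts in 4 or more of a comparison's libraries were kept, and edgeR (4.0.16) fitted TMM-scaled quasi-likelihood models for each comparison on its own libraries and for the interaction on all 16, two-sided, with Benjamini-Hochberg adjustment over all tested genes at 0.05. Alternatives were limma-voom as in the study (limma 3.58.1), DESeq2 (1.42.0), other scalings, filters and sets of libraries. The fits were tested on simulated data. For Ccr2, Ccr6 and Ccr9 in culture, ratios of summed counts with exact 95% intervals are given in place of fitted fold changes, and levels for list genes near 0 counts. The 9 receptors, the gene lists and the motifs were chosen with earlier results of these data known. All 9 receptors are named. From each related list the text names the 2 largest rises and falls past the threshold in WT, any gene called for genotype by edgeR, and each tested ligand; list members named for other reasons, and genes named beside the libraries that stood apart, were picked after their values were seen. Gene positions and exon lengths come from GENCODE M21. Replicate numbers were not used to pair libraries, since not every same-numbered pair deviated together. Sequencing depth ranged from 22516424 to 34533316 counts per library. Some genes of the lists are not reported here.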

Additional observations from a re-analysis of the deposited data

Results flagged for a closer look

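In 33 groups of 4 libraries with a receptor above 3 counts, 2 values lay farther from the others than Dixon's 95% limit, where chance gives about 1 in 20 groups. Cxcr3 in Aim2-/- Tn replicate 3 was the highest of its group at 12.7 CPM, with a gap of 0.956 of the group's range to the next library. Without this library the culture difference of Cxcr3 in Aim2-/- cells was 0.63 on the log2 scale (adjusted p = 0.00565 in edgeR's test). Cxcr6 in WT Treg replicate 4, which belongs to the libraries that stood apart, was the lowest of its group at 1.84 CPM, with a gap of 0.945 of the range.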

How the results depend on the processing

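The direction and call of the 6 culture changes held in every alternative in which the gene was tested, and over the log2 differences of the 9 receptors 629 alternative values kept direction and call, 41 changed direction and 10 passed the threshold newly, 1 of these with a change of direction. In WT culture, leaving out the 1 Treg library that stood apart is the fit without WT Treg replicate 4 and was counted once. Where a minimum of 10 counts in every library was set, 2 receptors were called in WT and 3 in Aim2-/- cells, because fewer were then tested.

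The uncalled culture differences changed sign with the set of libraries. In WT, Cxcr3 was 0.56 and Cxcr6 0.27 with replicates 1 and 2 alone, Cxcr5 was -0.09 with replicates 3 and 4 alone, and Cxcr3 was 0.45 and Cxcr6 0.07 without the 2 Tn libraries that stood apart, a set chosen, like the 3 Treg libraries, after seeing the data. In Aim2-/- cells, Cxcr3 was -0.02 with 10 counts in every library and -0.45 with replicates 3 and 4 alone, Cxcr6 0.07 with replicates 1 and 2 alone, and Cxcr5 0.74 with those and 0.45 without Treg replicates 3 and 4. Leaving out 1 library at a time gave -0.54 to 0.06 for Cxcr3 in WT, and -0.16 to 0.63 for Cxcr3 and -0.47 to 0.25 for Cxcr5 in Aim2-/- cells. The cause was not tested.

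For genotype in Tn, replicates 3 and 4 alone called 1 receptor. Over all genes, 31 were called in Tn in the reported fit, 127 with DESeq2, 49 with no filter, 18 with 10 counts in every library, 50 in a fit of all 16 libraries, 51 with a term for replicates 1 and 2 against 3 and 4, 494 with replicates 3 and 4 alone and 126 without the 2 Tn libraries. Differences in Tn that changed sign were those of Cxcr6 (0.14) and Cxcr4 (-0.16) with replicates 1 and 2 alone, and of Ccr2 (0.37), Cxcr6 (0.47), Ccr8 (-0.09) and Cxcr4 (-0.25) without the 2 Tn libraries. Single libraries left out gave -1.07 to 0.34 for Ccr2, -0.25 to 0.69 for Cxcr3 and -0.06 to 0.28 for Cxcr4. In Treg, 29 genes were called in the reported fit, 52 with DESeq2, 17 with 10 counts in every library, 6 with replicates 3 and 4 alone and 15 to 22 with 1 library left out. There Ccr8 was -0.06 with replicates 3 and 4 alone and -0.07 to 0.11 with 1 library left out, and Cxcr5 was 0.22 with replicates 1 and 2 alone, 0.20 without the 3 Treg libraries and -0.44 to 0.13 with 1 library left out. The interaction called 3 genes in the reported fit, 10 with DESeq2, 0 by edgeR with 10 counts in every library (369 genes at an unadjusted p under 0.05), 34 without the 2 Tn libraries and 2 to 5 with 1 library left out.

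Same-numbered libraries did not deviate together in every pair (correlations of deviations from -0.043 to 0.148 for the culture comparisons and from -0.02 to 0.488 for genotype), and the labels give the numbers no meaning. In Treg 3 of 4 pairs correlated at 0.298 to 0.488, but only 1 of 4 libraries correlated best with its own number. With the replicate number as a block, 10355 and 10862 genes were called for culture in WT and Aim2-/-, 29 and 41 for genotype in Tn and Treg and 2 for the interaction, with 6, 6, 0, 0 and 0 receptors among them. In Treg the block raised the genes with an unadjusted p under 0.05 from 304 to 1101.

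With 4 libraries per group, the intervals of genotype differences are wide for receptors that vary between libraries. At these depths Ccr6 in Tn and Ccr2 and Ccr9 in Treg were near 0 counts, and genotype was not tested there. The libraries that stood apart are unevenly shared between genotypes, and in Tn the cut between them and Aim2-/- replicate 3 was a choice.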
